A study of Mus musculus with 12 samples.

Results

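The testes of mouse fetuses lacking both Amh and Inhbb (dKO XY) were compared with wild-type testes (control XY) at embryonic day 12.5 (E12.5). This age is that of the sample labels, whereas the data statement of the study lists the series under a later age, E15.5, so the age of every value rests on the labels. The comparison used the 4 dKO XY and the 4 control XY arrays out of 12 in the series, chosen by their titles, and the remaining 4 arrays held wild-type ovaries (control XX). dKO XY fetuses were germline double knockouts on a C57BL/6 background, from timed matings that the labels give as Amh+/-; Inhbb+/- crosses, and the controls were labelled wild type. The gonads were frozen, and their total RNA was amplified and hybridized to Clariom D mouse arrays, with 1 array for each of the 4 replicates of a group. The samples were gonads rather than sorted cells, so every value is an average over the cell types of the gonad.

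Anti-Müllerian hormone (AMH) and activin B, a dimer of the βB subunit that Inhbb encodes, are secreted by Sertoli cells, the supporting cells of the testis cords. Both belong to the TGF-β family and signal through paired type I and type II receptors, which pass the signal to SMAD proteins in the nucleus. AMH is best known for removing the Müllerian ducts of the male fetus, and activin B of Sertoli cells is known to act on the vessels and interstitium of the mouse testis.

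The array has 65956 transcript clusters, each read as a log2 intensity. A cluster was called where the adjusted p of the comparison was under 0.05. On the deposited values 11036 clusters were higher in dKO XY than in control XY testes (16.7% of those tested) and 6465 were lower (9.8%). With a change of at least 2-fold as well, these were 1106 (1.68%) and 1718 (2.6%). All 4 dKO XY arrays were above all 4 control XY arrays for 10694 clusters (16.2%) and below them for 5434 (8.24%). Across all clusters the median log2 fold change was 0.17. After quantile normalization, which gives every array the same distribution of values, 835 clusters were higher (1.27%) and 975 were lower (1.48%), and the median was −0.01. Between these settings the calls shared in the same direction numbered 780 higher and 806 lower.

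The arrays of the compared groups differed in signal contrast, a measure taken from the control probe sets of each array by subtracting the mean of the negative ones from that of the positive ones. It was 2.83, 3.83, 2.48 and 3.30 in dKO XY 1 to 4, against 3.95, 4.18, 4.44 and 3.70 in control XY 1 to 4. dKO XY 1 and dKO XY 3 were the lowest, while dKO XY 2 lay between control XY 4 and control XY 1. The mean difference was −0.957 (two-sided exact permutation test over 70 arrangements, p = 0.0571, where the smallest p possible is 0.0286). Spike-in probe sets with no mouse target were at 5.80 ± 0.197 in dKO XY arrays, against 5.42 ± 0.0829 in control XY arrays (SD, n = 4 each), with no overlap. With signal contrast as a covariate in limma no cluster passed the adjusted threshold, while 2949 had an unadjusted p under 0.05. Without dKO XY 1 and dKO XY 3 together, 4 clusters were lower and none higher, with 10780 at an unadjusted p under 0.05. The part that signal contrast has in a given difference was not tested. The values of dKO XY 2, minus the mean of control XY 1 and control XY 4, are therefore given beside the main results. They are a comparison at like signal contrast, with no test and with 1 dKO XY array. Where a gene was picked for its call, dKO XY 2 took part in the choice, so its values there are no separate check.

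Calls were spread unevenly over the range of levels. Clusters were divided by mean level into 4 sets of 16489. In the set of lowest level 16.3% were higher and 0.346% were lower in dKO XY testes. In the next set these shares were 25.9% and 0.867%, and in the one above it 18.9% and 5.86%. In the set of highest level 5.90% were higher and 32.1% were lower, and its median log2 fold change was −0.41. After quantile normalization this set held 366 higher and 352 lower calls, with a median of −0.09. Shares of all symbols given beside groups of genes below are not matched for level. For groups at high level, the 32.1% lower in this set is the nearer share on the deposited values.

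**Figure D1:**
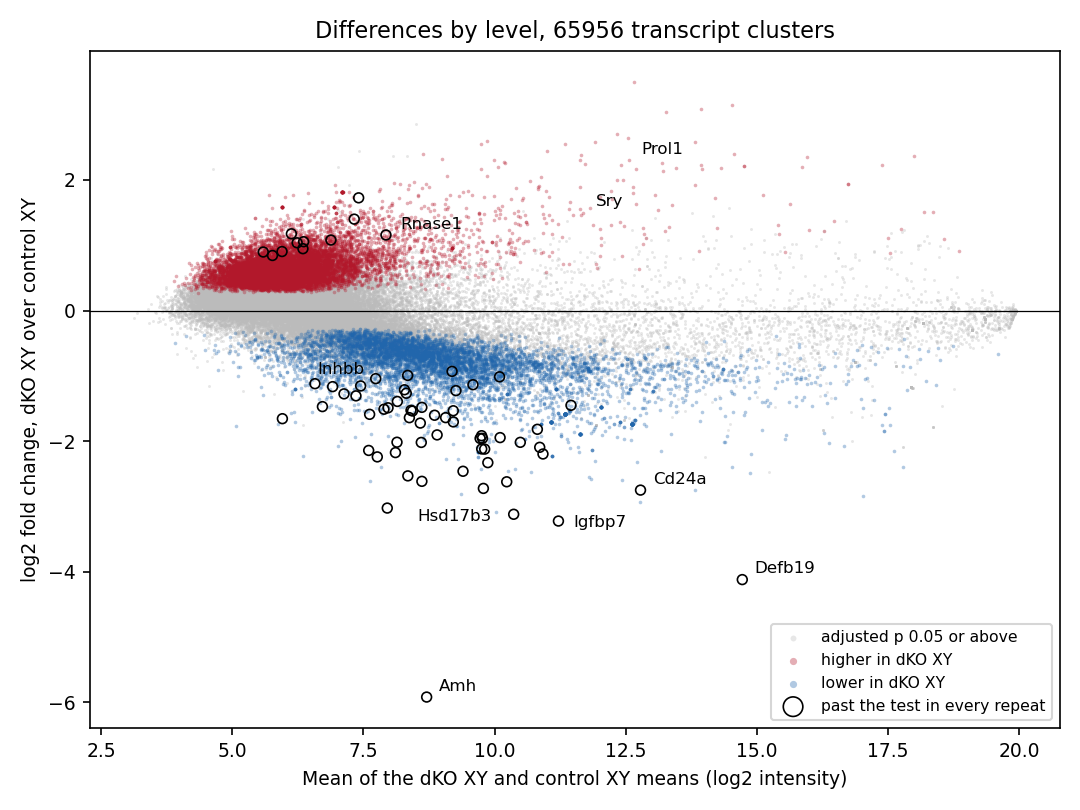
Log2 fold change of dKO XY over control XY testes (vertical axis) against the mean of the 2 group means (horizontal axis, log2 intensity) for all 65956 transcript clusters. Red clusters were higher and blue clusters lower at an adjusted p under 0.05, grey ones were not called, and black circles mark the 68 clusters that passed in every repeat of the fit, while red clusters lie mostly at low levels and blue ones at high levels.

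Of the targeted genes, Amh was low in every dKO XY array. It read 5.79, 5.59, 5.90 and 5.71 in dKO XY 1 to 4, against 11.33, 11.39, 13.38 and 10.56 in control XY 1 to 4. The groups were far apart, and the wild-type ovary averaged 5.36. The log2 fold change was −5.92 ± 0.43 (SE, n = 4 per group, adjusted p = 0.000372). The dKO XY values lay under 10.5, the level that 95% of the negative control values stayed under, so this size is no more than a bound. In dKO XY 2 it was 5.35 below control XY 1 and 4.

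Inhbb was dimmer and differed less. It read 6.69, 6.95, 6.86 and 6.99 in dKO XY 1 to 4, against 7.45, 7.31, 8.02 and 7.10 in control XY 1 to 4. The ranges did not overlap, but dKO XY 4 and control XY 4 were close. All of these values, those of control XY included, lay under the negative control level of 10.5, so the size of the difference is uncertain. The log2 fold change was −0.59 ± 0.18 (adjusted p = 0.035), and the ovary averaged 6.72. The Inhbb call was lost after quantile normalization (adjusted p = 0.0557) and without any of 5 arrays (adjusted p up to 0.0925, highest without control XY 3). Where the probes of either gene lie relative to the deleted sequence is not given in the sources used here, so these levels check the labels only as far as the probes fall inside it.

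The genes around the targeted loci were described too, by gene order in the RefSeq annotation (GRCm38.p6). Of the 20 nearest genes of Amh 17 were measured, with a median log2 fold change of −0.20. Against 14.5% of all 30818 gene symbols lower, 4 of the 17 were lower and none higher. These were Ap3d1 (−0.48 ± 0.16, adjusted p = 0.0427), Plekhj1 (−0.68 ± 0.15, adjusted p = 0.0222), Lsm7 (−0.86 ± 0.26, adjusted p = 0.0358) and Timm13 (−1.09 ± 0.34, adjusted p = 0.0373). None of them passed after quantile normalization, where the lowest adjusted p was 0.0904 for Plekhj1. Of the 20 nearest genes of Inhbb 8 were measured, and Gli2, a transcription factor of the hedgehog pathway, was the 1 called (−0.83 ± 0.13, adjusted p = 0.0148). Gli2 was called after quantile normalization too (−0.76, adjusted p = 0.0299), and was lost without dKO XY 1 (adjusted p = 0.059).

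Of all clusters, 57 were lower and 11 higher in every repeat of the fit, that is on the deposited values, after quantile normalization and in each of the 8 fits that left out 1 XY array (0.0864% and 0.0167%). Among the lower ones 37 were named genes and among the higher ones 4. Of the 37, 16 averaged in either group above that background level of 10.5, as did 5452 of all clusters. Zar1, Sel1l3, Stc1, Frem1, Ccl17, Hhip, Wnt5a, Prokr2, Robo2 and Tesc, described below, were under it in both groups. The sizes of their falls are therefore uncertain. In bulk tissue, fewer cells of a type and less RNA per cell cannot be told apart.

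After that of Amh, the deepest of these falls was in a Sertoli cell gene. Defb19, a β-defensin gene of Sertoli cells, read 11.52, 13.63, 11.60 and 13.90 in dKO XY 1 to 4, against 16.63, 16.66, 17.21 and 16.63 in control XY 1 to 4. All dKO XY arrays were low and the 2 with low signal contrast were lowest, while the ovary averaged 8.65. Defb19 fell by 4.12 ± 0.51 (adjusted p = 0.00711), and by 3.00 in dKO XY 2 against control XY 1 and 4. Hsd17b3, which in the fetal mouse testis turns androstenedione into testosterone inside Sertoli cells, read 8.54, 8.85, 8.66 and 9.17 in dKO XY 1 to 4, against 10.92, 11.82, 12.85 and 12.10 in control XY 1 to 4. Its dKO XY arrays lay close together, and its log2 fold change was −3.12 ± 0.31 (adjusted p = 0.00263). In dKO XY 2 Hsd17b3 was 2.66 below control XY 1 and 4.

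Ptgds, which encodes a prostaglandin D synthase, read 8.79, 9.0, 8.59 and 9.30 in dKO XY 1 to 4, against 10.81, 11.51, 12.46 and 11.39 in control XY 1 to 4. Its groups did not overlap either, and the log2 fold change was −2.62 ± 0.30 (adjusted p = 0.00635). Ccl17, a chemokine gene, read 6.49, 6.48, 6.61 and 7.0 in dKO XY 1 to 4, against 9.04, 8.67, 9.56 and 8.28 in control XY 1 to 4. The dKO XY arrays were near the ovary (6.34 on average), with a log2 fold change of −2.24 ± 0.25 (adjusted p = 0.00589).

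**Figure D2:**
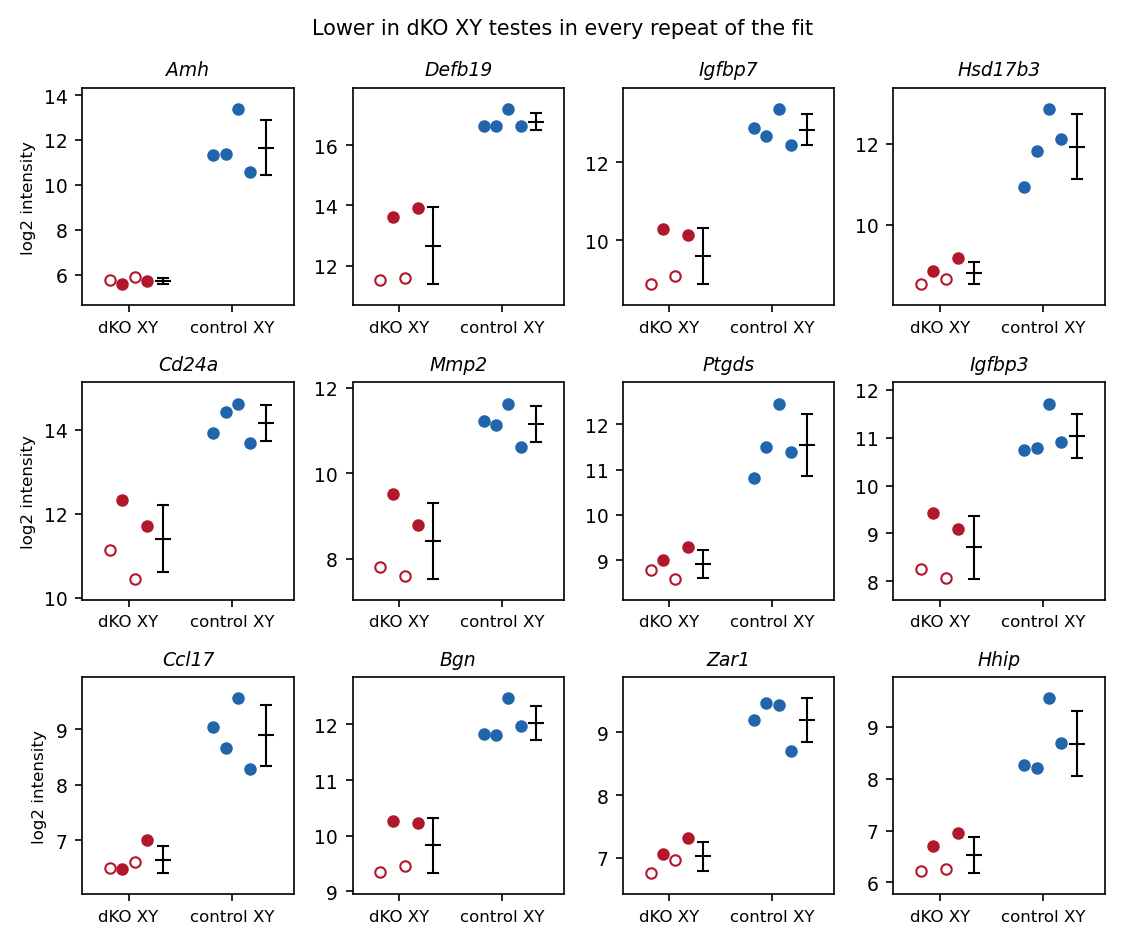
Log2 intensity (vertical axes, a separate range for each gene) of the 12 named genes with the largest falls among those lower in every repeat of the fit, in the 4 dKO XY (red) and 4 control XY (blue) arrays. Open circles are dKO XY 1 and dKO XY 3, the arrays of lowest signal contrast, and black bars are the mean ± SD of a group, and for each of the 12 genes every dKO XY array lies below every control XY array.

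Of 29 listed Sertoli cell genes 27 were measured. Of these, 17 were lower and 2 higher in dKO XY testes, against 14.5% of all 30818 symbols lower and 16.4% higher. This list and those below were chosen with earlier results of these data known, so their counts are descriptions and no separate check. The median log2 fold change of the list was −0.71 (0.11 over all symbols). After quantile normalization 12 were lower and none higher (1.71% and 1.19% of all symbols), with a median of −0.54. Leaving out 1 array took the 19 calls to 5 without dKO XY 1, 6 without dKO XY 3 and 7 without control XY 3. Lower genes beside those above included Aldh1a1, a retinaldehyde dehydrogenase (−2.59 ± 0.39, adjusted p = 0.013), Cst9, a cystatin that marks Sertoli cells (−1.87 ± 0.41, adjusted p = 0.022), Clu, the secreted chaperone clusterin (−1.35 ± 0.28, adjusted p = 0.0211), and Tesc, a calcium-binding protein of the early testis (−1.23 ± 0.17, adjusted p = 0.00885). Tesc, Defb19, Hsd17b3, Ptgds and Ccl17 were lower in every repeat, whereas Aldh1a1, Cst9 and Clu were not called without at least 1 XY array (adjusted p up to 0.059, 0.0728 and 0.0654). Fshr, the follicle-stimulating hormone receptor (0.55 ± 0.15, adjusted p = 0.0274), and Serpina5 (0.52 ± 0.16, adjusted p = 0.0372) were the higher ones, and neither was called after quantile normalization.

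Of 18 gonad and Sertoli cell transcription factors 3 were lower and none higher (median −0.12), near the 14.5% of all symbols that were lower. After quantile normalization the median was 0.11, with 1 lower. The lower ones were Tcf21, which also marks the interstitium, Rhox8, a homeobox gene of Sertoli cells (−1.17 ± 0.27, adjusted p = 0.0223), and Sox8, a relative of Sox9 (−0.45 ± 0.15, adjusted p = 0.0429), and none was called without control XY 3, dKO XY 1 or dKO XY 3. The next 3 genes were chosen as defining markers after their values were seen. Sox9, which sets Sertoli cell fate, read 10.04, 10.85, 9.94 and 10.33 in dKO XY 1 to 4, against 10.13, 10.68, 10.55 and 10.04 in control XY 1 to 4, with overlapping ranges (adjusted p = 0.859). Dmrt1, a transcription factor that maintains the testis, had a log2 fold change of −0.13 ± 0.13 (adjusted p = 0.437), and Dhh, which encodes a hedgehog ligand, one of −0.50 ± 0.20 (adjusted p = 0.0786). In dKO XY 2 Sox9 was 0.77 higher than in control XY 1 and 4. The median of the Sertoli cell list there was −0.37, and 20 of its 27 members were below both control XY arrays, against 30.1% of all symbols.

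Amh, Zar1, Sel1l3 and Stc1 were the 4 clusters still called without dKO XY 1 and dKO XY 3, and Sel1l3 and Stc1 were picked for that after their values were seen. Zar1, an oocyte gene known for its role in the early embryo, read 6.75, 7.06, 6.96 and 7.32 in dKO XY 1 to 4, against 9.19, 9.46, 9.43 and 8.71 in control XY 1 to 4. It was low in all dKO XY arrays and in the ovary (6.48), with a log2 fold change of −2.17 ± 0.18 (adjusted p = 0.000677, and 0.0425 without dKO XY 1 and 3). Sel1l3 read 6.86, 6.96, 6.76 and 6.72 in dKO XY 1 to 4, against 8.19, 8.49, 8.76 and 8.21 in control XY 1 to 4. The spread within each group was small beside the difference of −1.59 ± 0.13 (adjusted p = 0.000677).

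Stc1, which encodes the secreted glycoprotein stanniocalcin, read 7.33, 8.02, 6.71 and 8.32 in dKO XY 1 to 4, against 9.50, 9.54, 9.83 and 9.58 in control XY 1 to 4. The dKO XY arrays were scattered while the control XY arrays lay close together, and the log2 fold change was −2.02 ± 0.27 (adjusted p = 0.00862). Frem1, a matrix protein of epithelial basement membranes, read 7.56, 8.0, 7.54 and 7.56 in dKO XY 1 to 4, against 9.08, 9.19, 9.24 and 9.31 in control XY 1 to 4. It fell in every array (−1.54 ± 0.14, adjusted p = 0.00114), and had an adjusted p of 0.0589 without dKO XY 1 and 3. Compared at like signal contrast, the differences were −1.89 for Zar1, −1.24 for Sel1l3, −1.53 for Stc1 and −1.20 for Frem1. All of these genes were picked from fits that held dKO XY 2, so these differences are no separate check. Zar1, Sel1l3, Stc1 and Frem1 averaged under the negative control level of 10.5 in both groups, so the sizes of their falls are uncertain.

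Promoters of the lower genes were read from the RefSeq promoter table (GRCm38.p6), which holds 25 of the 37 named genes lower in every repeat. Each entry spans 250 bases before to 50 bases after the start of the gene. Those of 4 genes whose fall is described above are shown, with the matches that they hold: Zar1 (chr5:72581035-72581334, minus strand), Hsd17b3 (chr13:64089152-64089451, minus strand), Ptgds (chr2:25469700-25469999, minus strand) and Ccl17 (chr8:94810203-94810502, plus strand). Capitals mark matches to the motifs searched.
Zar1: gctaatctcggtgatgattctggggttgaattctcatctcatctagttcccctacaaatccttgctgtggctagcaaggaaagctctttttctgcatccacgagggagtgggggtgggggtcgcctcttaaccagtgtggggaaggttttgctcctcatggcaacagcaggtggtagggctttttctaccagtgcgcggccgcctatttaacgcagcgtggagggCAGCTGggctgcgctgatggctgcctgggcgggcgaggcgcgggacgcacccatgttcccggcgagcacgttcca
Hsd17b3: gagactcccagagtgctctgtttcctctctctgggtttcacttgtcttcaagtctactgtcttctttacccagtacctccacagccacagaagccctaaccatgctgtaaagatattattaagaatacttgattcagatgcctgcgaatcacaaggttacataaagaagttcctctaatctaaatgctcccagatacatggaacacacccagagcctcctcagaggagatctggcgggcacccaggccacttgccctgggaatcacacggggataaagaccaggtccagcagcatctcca
Ptgds: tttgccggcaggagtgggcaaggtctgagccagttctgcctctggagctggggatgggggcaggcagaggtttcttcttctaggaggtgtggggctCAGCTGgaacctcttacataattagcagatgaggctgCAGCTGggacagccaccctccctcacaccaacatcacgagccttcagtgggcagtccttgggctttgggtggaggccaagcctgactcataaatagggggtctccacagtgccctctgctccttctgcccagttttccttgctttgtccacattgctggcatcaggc
Ccl17: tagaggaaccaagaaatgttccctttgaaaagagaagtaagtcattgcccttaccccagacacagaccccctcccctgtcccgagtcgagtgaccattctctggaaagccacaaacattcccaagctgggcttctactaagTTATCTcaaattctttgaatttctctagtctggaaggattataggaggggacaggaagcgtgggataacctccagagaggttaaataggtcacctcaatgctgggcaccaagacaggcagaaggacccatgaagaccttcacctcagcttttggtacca

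The motifs were searched on both strands. CAGCTG, the E-box that the interstitial factor TCF21 can bind, was present in 9 of the 25 promoters, among them those of Zar1 and Ptgds, and in 18.3% of the promoters of all 27025 symbols. AGATAA, a core of GATA factor sites, was in 2 of 25, among them that of Ccl17, and in 12.7% of all. GGCGCC, a GC-rich element bound by SMADs, was in 4 of 25 and in 13.4% of all. AACAATG, a SOX core, was in 1 of 25 and in 4.33% of all. CAAGGTCA, a site of the steroidogenic factor NR5A1, GTCTAGAC, the SMAD4 palindrome, CAGACAGAC, a pair of SMAD boxes, and GACCACCCA, a GLI core, were in none of the 25 and in 1.76%, 0.248%, 0.847% and 0.289% of all. The Hsd17b3 window held none of the motifs. These matches are descriptions of the letters, and no binding was measured.

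Fetal Leydig cells lie between the cords and make the androgens that shape the male tract. Of 12 measured steroid synthesis and fetal Leydig cell genes, of 18 listed, 8 were lower and 1 higher, against 14.5% and 16.4% of all symbols, with a median log2 fold change of −0.93. After quantile normalization 4 were lower (median −0.86), against 1.71% of all symbols. Cyp17a1, the enzyme that makes androstenedione, read 6.56, 6.25, 6.67 and 7.10 in dKO XY 1 to 4, against 8.08, 7.71, 11.31 and 9.03 in control XY 1 to 4. The dKO XY arrays were near the ovary (6.43), and control XY 3 stood well above the others of its group. Its log2 fold change was −2.39 ± 0.58 (adjusted p = 0.0237). Hsd3b1, another steroid enzyme, read 7.62, 7.36, 7.85 and 7.81 in dKO XY 1 to 4, against 9.35, 9.13, 10.81 and 9.16 in control XY 1 to 4. It fell by 1.95 ± 0.41 (adjusted p = 0.0212), while the ovary averaged 8.10.

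Hsd11b2, which inactivates glucocorticoids, fell by 1.70 ± 0.31 (adjusted p = 0.0191), and Cyp11a1, the side-chain cleavage enzyme, had a log2 fold change of −0.97 ± 0.39 (adjusted p = 0.0759). None of the 12 genes was called without control XY 3, without dKO XY 1 or without dKO XY 3. In dKO XY 2 against control XY 1 and 4 the median was −0.63. There 10 of 12 genes were below both control XY arrays, against 30.1% of all symbols. Cyp17a1 differed by −2.31 and Hsd3b1 by −1.89. The list of cortical genes of the adrenal gland, an organ with the same steroid enzymes, had no call among 5 measured genes, and its median levels per array were 6.07 to 6.32 in dKO XY arrays, against 5.85 to 6.06 in control XY arrays.

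Interstitial progenitors give rise to the steroid-producing and stromal cells of the testis, and Sertoli cells signal to them through hedgehog. Of 18 measured interstitial progenitor genes of 22 listed 12 were lower and none higher (median −0.68), against 14.5% of all symbols lower, with 4 lower after quantile normalization (median −0.47). The calls numbered 2 without control XY 3, 1 without dKO XY 1 and 2 without dKO XY 3. Tcf21, a transcription factor of these cells, read 10.29, 11.55, 9.76 and 10.57 in dKO XY 1 to 4, against 12.92, 12.78, 13.82 and 12.97 in control XY 1 to 4. The groups did not overlap, and Tcf21 fell by 2.58 ± 0.43 (adjusted p = 0.0164). Wnt5a, a WNT ligand of mesenchyme, read 7.43, 7.87, 7.17 and 7.76 in dKO XY 1 to 4, against 8.89, 8.99, 9.61 and 9.29 in control XY 1 to 4. It fell by 1.64 ± 0.22 (adjusted p = 0.00862) and was lower in every repeat, as the 1 member of the list that was.

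Nr2f2, the nuclear receptor that defines the interstitial lineage, fell by 1.49 ± 0.33 (adjusted p = 0.0222). Of 10 measured genes of the hedgehog list 2 were lower and none higher, against 14.5% of all symbols lower. Gli2, given above as a lower neighbour of Inhbb, also belongs to this pathway but was not in the list. Hhip, an inhibitor that hedgehog signals induce, read 6.22, 6.69, 6.26 and 6.95 in dKO XY 1 to 4, against 8.25, 8.20, 9.55 and 8.69 in control XY 1 to 4, and fell by 2.14 ± 0.29 (adjusted p = 0.00862). Ptch1, the hedgehog receptor and itself a target, fell by 1.56 ± 0.32 (adjusted p = 0.0212). At like signal contrast Tcf21 differed by −1.39, Hhip by −1.78, Ptch1 by −0.94 and the median of the interstitial list by −0.20.

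Among 16 smooth muscle contractile genes 5 were lower and none higher, against 14.5% of all symbols lower, with a median of −0.14. Acta2, smooth muscle actin, read 7.63, 8.41, 7.70 and 8.06 in dKO XY 1 to 4, against 9.72, 9.43, 12.004 and 9.70 in control XY 1 to 4. It fell by 2.27 ± 0.44 (adjusted p = 0.0202), and control XY 3 was again the highest. Tpm1 and Cald1, which encode tropomyosin and caldesmon, fell by 1.23 ± 0.20 (adjusted p = 0.0166) and 1.02 ± 0.19 (adjusted p = 0.0197). After quantile normalization 4 genes of the list were lower (median −0.20), against 1.71% of all symbols. The calls numbered 1 without control XY 3, and there were none without dKO XY 1 or without dKO XY 3. Acta2, Tpm1 and Cald1 thus lost their calls without single arrays (adjusted p up to 0.0654, 0.063 and 0.0717).

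Extracellular matrix genes were examined as the fibrillar matrix of the stroma and the basement membrane that wraps the cords. Of 25 fibrillar collagen and matrix genes 15 were lower and none higher (median −0.64), and 8 were lower after quantile normalization (median −0.60). Of all symbols 14.5% were lower, and 1.71% after quantile normalization. Mmp2, a gelatinase, read 7.81, 9.51, 7.59 and 8.79 in dKO XY 1 to 4, against 11.21, 11.13, 11.63 and 10.62 in control XY 1 to 4. It fell by 2.72 ± 0.39 (adjusted p = 0.0105), and dKO XY 2 was the closest to the control XY arrays. Bgn, the proteoglycan biglycan, read 9.34, 10.27, 9.45 and 10.23 in dKO XY 1 to 4, against 11.84, 11.80, 12.47 and 11.98 in control XY 1 to 4, and fell by 2.20 ± 0.26 (adjusted p = 0.00635). Vcan, versican (−2.0 ± 0.31, adjusted p = 0.0144), Fn1, fibronectin (−1.81 ± 0.34, adjusted p = 0.02), and Col3a1, a fibrillar collagen (−1.31, adjusted p = 0.0222), fell as well.

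Of 22 basement membrane genes 10 were lower and none higher (median −0.66), and 6 were lower after quantile normalization (median −0.32). The shares of all symbols that were lower were 14.5% and 1.71%. Besides Frem1 the lower genes included Nid1, nidogen (−1.66 ± 0.27, adjusted p = 0.0152), Lamb1, a laminin chain (−1.42 ± 0.28, adjusted p = 0.0206), and Col4a1, a network collagen (−1.07 ± 0.22, adjusted p = 0.0212). At like signal contrast the median was −0.27 for the fibrillar list, with 20 of 25 genes below both control XY arrays. For the basement membrane list it was −0.11, with 13 of 22. Of all symbols 30.1% were below both. Without control XY 3, and likewise without dKO XY 1, 2 fibrillar and 1 basement membrane genes were called.

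In the insulin-like growth factor (IGF) system, where binding proteins hold the ligands, 8 of 15 measured genes were lower and 1 higher (median −0.90). Of all symbols 14.5% were lower and 16.4% higher. Igfbp7 read 8.88, 10.30, 9.09 and 10.15 in dKO XY 1 to 4, against 12.86, 12.67, 13.36 and 12.43 in control XY 1 to 4, and fell by 3.22 ± 0.35 (adjusted p = 0.00415). Igfbp3 read 8.25, 9.43, 8.07 and 9.08 in dKO XY 1 to 4, against 10.75, 10.78, 11.71 and 10.90 in control XY 1 to 4, and fell by 2.33 ± 0.32 (adjusted p = 0.00885). Both were lower in every repeat, and the ovary averaged 8.92 for Igfbp7 and 8.81 for Igfbp3, close to dKO XY testes. Igfbp5 fell by 1.78 ± 0.46 (adjusted p = 0.0256) and the receptor gene Igf1r by 1.00 ± 0.19 (adjusted p = 0.02). After quantile normalization 4 members were lower (median −0.39), against 1.71% of all symbols. At like signal contrast the median of the list was −0.05, with −2.35 for Igfbp7 and −1.40 for Igfbp3.

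The remaining large falls in every repeat belonged to no single list. Cd24a, a surface protein of many progenitor cells, read 11.13, 12.34, 10.46 and 11.70 in dKO XY 1 to 4, against 13.92, 14.41, 14.62 and 13.67 in control XY 1 to 4. It fell by 2.75 ± 0.33 (adjusted p = 0.00635), and the ovary averaged 11.99. Further genes, named after their values were seen, were the SLIT receptor genes Robo1 (−2.12 ± 0.29, adjusted p = 0.00862) and Robo2 (−1.64 ± 0.23, adjusted p = 0.00989), Myl7, a myosin light chain (−2.12 ± 0.28, adjusted p = 0.00862), Rcan1, an inhibitor of calcineurin (−2.02 ± 0.28, adjusted p = 0.00942), and Prokr2, a prokineticin receptor (−2.02 ± 0.28, adjusted p = 0.0101). At like signal contrast these 5 genes differed by −1.28, −1.18, −1.29, −0.94 and −1.65.

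Members of the AMH and activin pathway itself were compared by role. Of 18 receptor and SMAD genes 7 were lower and none higher (median −0.36), against 14.5% of all symbols lower. The median level of the list was 7.44 to 7.85 in dKO XY arrays and 7.81 to 8.18 in control XY arrays. In the set of clusters of highest level 32.1% were lower. No gene of the list was called without control XY 3, dKO XY 1 or dKO XY 3. None was called by limma after quantile normalization (median −0.23, with 7 lower at an unadjusted p under 0.05). Amhr2, the type II receptor of AMH, read 8.13, 8.49, 8.07 and 8.35 in dKO XY 1 to 4, against 8.21, 8.4, 8.47 and 7.86 in control XY 1 to 4. Its ranges overlapped and its log2 fold change was 0.02 ± 0.20 (adjusted p = 0.937). Bmpr2, a type II receptor, and Bmpr1a, a type I receptor that AMH also uses, fell by 1.44 ± 0.29 (adjusted p = 0.0206) and 1.02 ± 0.22 (adjusted p = 0.0213).

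Of 23 TGF-β family ligands and antagonists 4 were lower and 1 higher, against 14.5% and 16.4% of all symbols, with a median of 0.05. Inha, whose product pairs with the βB subunit as inhibin B, read 8.20, 8.34, 8.38 and 8.53 in dKO XY 1 to 4, against 8.93, 9.31, 9.60 and 8.77 in control XY 1 to 4, and fell by 0.79 ± 0.18 (adjusted p = 0.0223). Tgfb2 fell by 1.44 ± 0.30 (adjusted p = 0.0212) and Fstl1, a follistatin-like protein, by 1.40 ± 0.29 (adjusted p = 0.0212). None of these 3 genes was called after quantile normalization.

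Of 16 SMAD-induced genes 7 were lower and none higher (median −0.34), with 4 lower after quantile normalization (median −0.37). The shares of all symbols that were lower were 14.5% and 1.71%. Id2, an inhibitor of differentiation induced by bone morphogenetic proteins, read 10.49, 11.51, 9.36 and 10.72 in dKO XY 1 to 4, against 12.88, 12.38, 12.70 and 12.80 in control XY 1 to 4, and fell by 2.17 ± 0.34 (adjusted p = 0.0146). Id1, of the same family, read 7.51, 8.42, 7.27 and 8.07 in dKO XY 1 to 4, against 9.03, 8.99, 9.73 and 9.60 in control XY 1 to 4, and fell by 1.52 ± 0.27 (adjusted p = 0.0184). Both genes had their highest dKO XY value in dKO XY 2, 1.33 and 0.89 below control XY 1 and 4. Skil, a negative regulator of SMADs, fell by 1.34 ± 0.22 (adjusted p = 0.0163). None of the 16 genes was called without control XY 3 or without dKO XY 1.

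**Figure D3:**
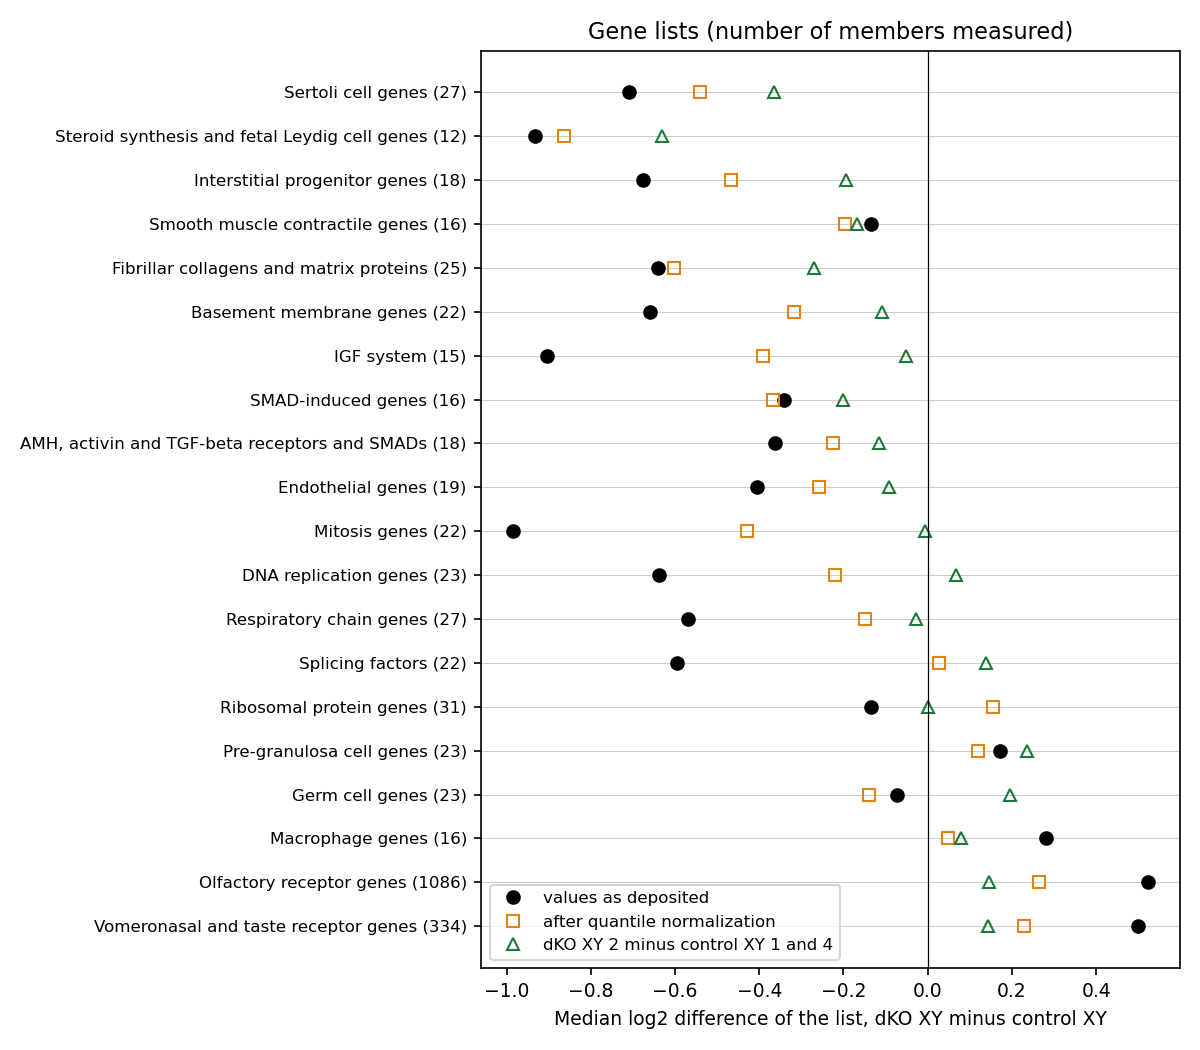
Median log2 difference of 20 gene lists, dKO XY minus control XY testes (horizontal axis), on the deposited values (black circles), after quantile normalization (orange squares) and for dKO XY 2 minus the mean of control XY 1 and 4 (green triangles). Numbers in brackets are members measured, and the steroid, Sertoli and matrix lists stay below 0 in all 3. This is not particular to them, as the interstitial list (−0.68, −0.47 and −0.20) and the mitosis list (−0.98, −0.43 and −0.01) do too.

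Proliferation genes were lower on the deposited values but were not called after quantile normalization. Of 22 mitosis genes 21 were lower and none higher (median −0.98), and of 23 DNA replication genes 10 were lower (median −0.64). The share of all symbols that were lower was 14.5%. Mki67, a marker of cycling cells, read 12.21, 13.35, 11.74 and 12.65 in dKO XY 1 to 4, against 13.52, 13.91, 13.82 and 13.38 in control XY 1 to 4. dKO XY 2 was just below control XY 4, and the log2 fold change was −1.17 ± 0.28 (adjusted p = 0.023). Cenpe, a motor of the kinetochore, fell by 1.40 ± 0.29 (adjusted p = 0.0212). None of the mitosis genes was called by limma after quantile normalization (median −0.43, with 15 lower at an unadjusted p under 0.05), nor without control XY 3, dKO XY 1 or dKO XY 3. At like signal contrast the medians were −0.01 for mitosis and 0.07 for DNA replication genes. The respiratory chain, with 12 of 27 genes lower (median −0.57), such as Ndufa1 of complex I (−1.20 ± 0.31, adjusted p = 0.0255), had a median of −0.03 there.

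Of 15 cell cycle inhibitors 2 were higher and 3 lower (median −0.04), against 16.4% of all symbols higher and 14.5% lower, and none was called without control XY 3, dKO XY 1 or dKO XY 3. The lower ones were Rb1, the retinoblastoma gene (−1.14 ± 0.20, adjusted p = 0.0184), Btg1 (−0.69 ± 0.19, adjusted p = 0.0293) and Gadd45a (−0.37 ± 0.13, adjusted p = 0.0497), and after quantile normalization only the 2 higher genes were called. Cdkn1a, which encodes the inhibitor p21, read 9.11, 9.70, 8.83 and 9.50 in dKO XY 1 to 4, against 8.43, 8.76, 8.66 and 8.37 in control XY 1 to 4. Every dKO XY array was above every control XY array, with the largest values in the 2 dKO XY arrays of higher signal contrast. It rose by 0.73 ± 0.21 (adjusted p = 0.0322), by 1.11 after quantile normalization (adjusted p = 0.0195), and was 1.30 higher at like signal contrast. Cdkn1c, its imprinted relative, rose by 0.56 ± 0.15 (adjusted p = 0.0272) and by 0.98 after quantile normalization (adjusted p = 0.0298). Both calls were lost without single XY arrays (adjusted p up to 0.0816 and 0.0846). Both genes averaged more in the ovary than in control XY testes, at 9.63 for Cdkn1a and 9.95 for Cdkn1c.

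Of the named genes higher in every repeat, Rnase1, a secreted ribonuclease of endothelium and pancreas, read 8.37, 8.64, 8.73 and 8.30 in dKO XY 1 to 4, against 7.45, 7.69, 7.0 and 7.26 in control XY 1 to 4. The groups did not overlap, and Rnase1 rose by 1.16 ± 0.15 (adjusted p = 0.00862), to a level above that of the ovary (6.98). Prg2, a granule protein of eosinophils, read 6.78, 6.88, 6.91 and 6.71 in dKO XY 1 to 4, against 5.95, 6.03, 5.72 and 5.80 in control XY 1 to 4, and rose by 0.95 ± 0.11 (adjusted p = 0.00635). The olfactory receptor gene Olfr935 rose by 1.08 ± 0.13 (adjusted p = 0.00711) and the vomeronasal receptor gene Vmn1r170 by 1.04 ± 0.13 (adjusted p = 0.00838). In both groups all 4 genes averaged under 10.5, the level that 95% of the negative control values stayed under. In dKO XY 2 against control XY 1 and 4 the differences were 1.28 for Rnase1, 1.00 for Prg2, 0.80 for Olfr935 and 0.74 for Vmn1r170.

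**Figure D4:**
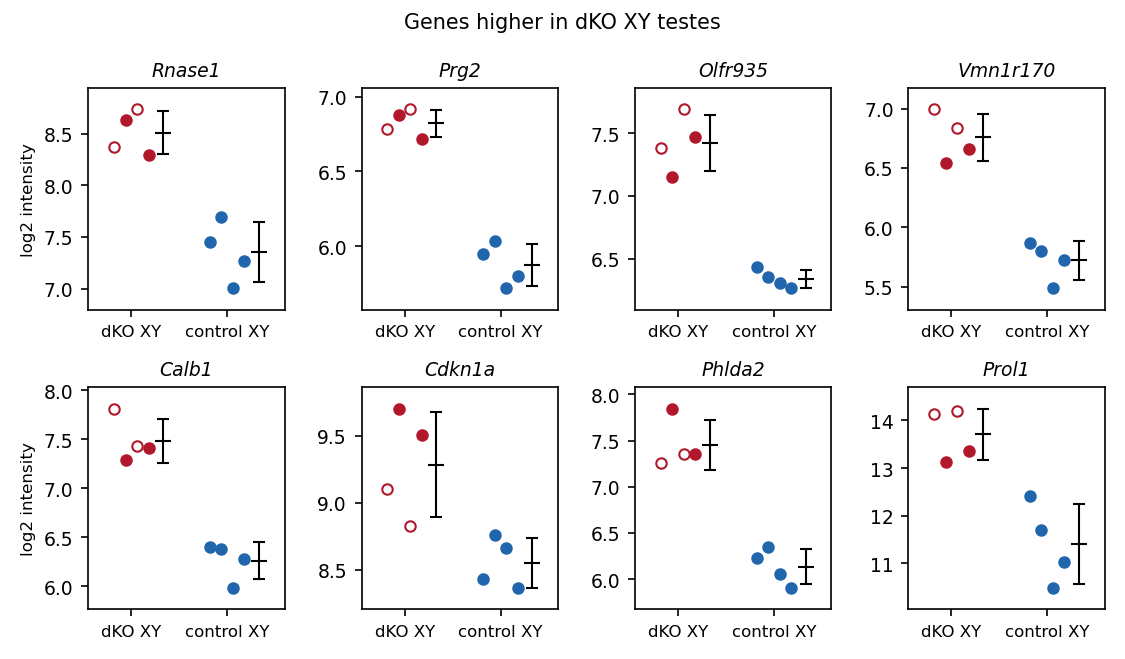
Log2 intensity (vertical axes, a separate range for each gene) of 8 genes higher in dKO XY testes, in the 4 dKO XY (red) and 4 control XY (blue) arrays, with the mean ± SD in black. Open circles are dKO XY 1 and dKO XY 3, the arrays of lowest signal contrast, and they are the highest for Prol1, while for Cdkn1a the filled ones are.

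Sensory receptor genes are known for their use in the nose and tongue. Of 1086 olfactory receptor genes 451 were higher and none lower in dKO XY testes by limma (adjusted p under 0.05), with a median log2 fold change of 0.52, against 16.4% of all symbols higher. The calls numbered 2 without control XY 3, 3 without dKO XY 1 and 6 without dKO XY 3. The median level of these genes was 5.95, 5.64, 6.22 and 5.86 in dKO XY 1 to 4, against 5.62, 5.33, 5.22 and 5.35 in control XY 1 to 4. Its order over the dKO XY arrays was the reverse of that of signal contrast, and after quantile normalization 44 genes were higher (median 0.26). Of 334 vomeronasal and taste receptor genes 144 were higher and none lower (median 0.50), and 12 were higher after quantile normalization. At like signal contrast the medians were 0.15 and 0.14. The largest rises of named genes, those of Prol1 (2.30 ± 0.48, adjusted p = 0.0212), Lce3f (1.96 ± 0.41, adjusted p = 0.0212), a gene of the cornified skin envelope, and Sprr1b (1.51 ± 0.36, adjusted p = 0.0228), of the same structure, also had dKO XY 3 as the highest and dKO XY 2 as the lowest dKO XY array. The cluster annotated as Sry rose by 1.5 ± 0.28 (adjusted p = 0.0199), but it averaged 11.41 in the ovary, which has no Y chromosome, so its signal cannot be read as that gene.

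**Figure D5:**
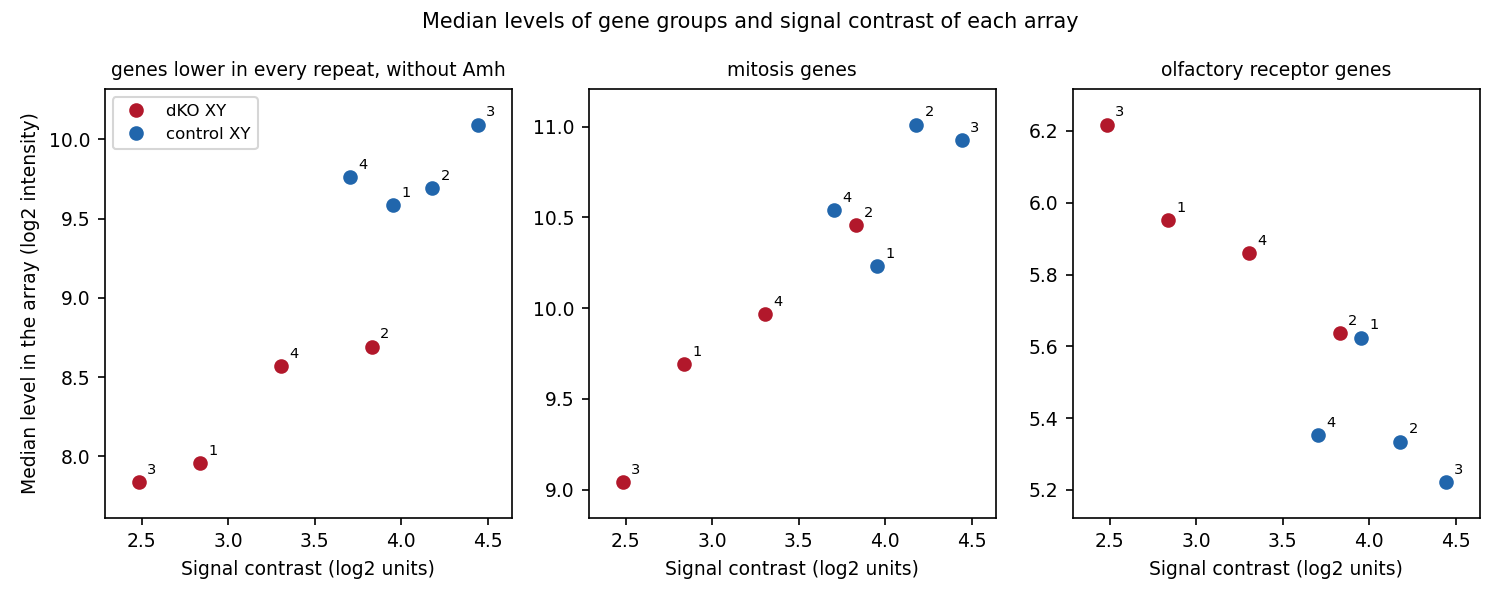
Median level in each array (vertical axes, log2 intensity) against signal contrast (horizontal axes, log2 units) for the named genes lower in every repeat without Amh (left), mitosis genes (middle) and olfactory receptor genes (right). Red points are dKO XY and blue points control XY arrays, with their replicate numbers. In the left panel dKO XY 2 lies below control XY 4 and 1. The genes of that panel were selected as lower in these same arrays, so this position is no separate check. In the middle panel dKO XY 2 lies between control XY 4 and 1, and in the right panel it lies beside control XY 1.

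Of 23 pre-granulosa cell genes 4 were higher and 1 lower (median 0.17), near the 16.4% of all symbols that were higher, and none was called without control XY 2, 3 or 4 or without dKO XY 1 or 3. None was called by limma after quantile normalization, where 4 were higher and 1 lower at an unadjusted p under 0.05. Phlda2, an imprinted gene high in the fetal ovary, read 7.25, 7.84, 7.36 and 7.35 in dKO XY 1 to 4, against 6.23, 6.34, 6.06 and 5.91 in control XY 1 to 4. It rose by 1.32 ± 0.36 (adjusted p = 0.029), still far below the ovary (10.80), and was 1.78 higher at like signal contrast. Runx1, a transcription factor of pre-granulosa cells, rose by 0.63 ± 0.17 (adjusted p = 0.0272), with 7.07 in the ovary, and was 0.62 higher at like signal contrast. Lgr5, a receptor of WNT-responsive cells, fell by 0.70 ± 0.19 (adjusted p = 0.0267). Of the defining markers Foxl2 (0.33 ± 0.15, adjusted p = 0.105), Fst (0.37 ± 0.35, adjusted p = 0.4), Wnt4 (−0.07 ± 0.15, adjusted p = 0.731) and Rspo1 (0.08 ± 0.15, adjusted p = 0.674) none passed. The median level of the list was 6.89 to 7.07 in dKO XY arrays, against 6.72 to 6.91 in control XY arrays and 8.02 to 8.54 in the ovary.

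Other cell types that a gonad can hold were checked through their markers. Of 23 germ cell genes 2 were higher and none lower (median −0.07), and Ddx4 and Dazl, which define germ cells, had log2 fold changes of −0.83 ± 0.49 (adjusted p = 0.194) and −1.05 ± 0.56 (adjusted p = 0.156) with overlapping ranges. The median of the germ cell list per array was 7.16 to 7.53 in dKO XY arrays, against 6.96 to 8.09 in control XY arrays. Of 19 endothelial genes 8 were lower and none higher (median −0.41), led by Cdh5, the cadherin of vessels (−1.35 ± 0.33, adjusted p = 0.0235). After quantile normalization 1 was lower. The shares of all symbols that were lower were 14.5% and 1.71%. Of 16 macrophage genes 3 were higher, near the 16.4% of all symbols, among them C1qb, a complement subunit (0.61 ± 0.14, adjusted p = 0.0227), and none by limma after quantile normalization, with 3 at an unadjusted p under 0.05. Of 11 genes of the mesonephros and its ducts 4 were higher (median 0.19), against 16.4% of all symbols. After quantile normalization 1 was higher and the median was −0.04, and none was called without control XY 3 or without dKO XY 1. Calb1, a calcium-binding protein of the duct, read 7.81, 7.29, 7.43 and 7.41 in dKO XY 1 to 4, against 6.40, 6.38, 5.98 and 6.28 in control XY 1 to 4 (1.22 ± 0.19, adjusted p = 0.0144). Calb1 averaged 7.56 in the ovary. The median level of the mesonephros list was 6.41 to 6.70 in dKO XY arrays, against 5.98 to 6.40 in control XY arrays, and its part in other differences was not tested. None of 11 neural crest and neuron genes was called in either direction.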

How the data were processed

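The values of 12 Clariom D arrays were used as the authors deposited them, in a series matrix of log2 intensities with 1 value per transcript cluster and array. The study's methods describe RMA-normalized log2 intensities, but the background correction and summary of this table are not given in the sources used here. Groups came from the sample titles. limma 3.58.1 (R 4.3.3) was fitted to all 12 arrays with a mean per group, and p-values for dKO XY minus control XY were adjusted by Benjamini-Hochberg over 65956 clusters. The p-values measure the spread between the arrays, which the study calls biological replicates. Signal contrast and spike-in levels came from the control probe sets. Symbols came from the platform annotation: 31292 clusters had 1 symbol, 1522 several and 33142 none. A symbol was represented by its cluster with the highest mean level, which gave 30818 symbols. The arrays of 1 group correlated at 0.974 to 0.992, and no arrays were identical. Arrays number only 4 per group, which limits the precision.

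Genes named were taken from the targeted genes, the 12 largest changes in each direction, the 12 largest among genes called in every repeat, up to 4 of the largest changes of each list, and called neighbours of the targeted genes. Others, among them Sox9, Dmrt1, Dhh, Sox8, Rhox8, Rb1, Btg1, Gadd45a, Tesc and the defining markers, were chosen after their values were seen. The members and lists were chosen with earlier results of these data known. Alternatives were quantile normalization, median centring, rescaling to equal signal contrast, contrast as a covariate, XY arrays only, array weights, an ordinary linear model, a filter on dim clusters, a trend in the variance, a replicate block and leaving out arrays. The comparison of dKO XY 2 with control XY 1 and 4 was added after seeing the data. The fit was tested on simulated data. Figures used matplotlib 3.10.9 (Python 3.11.15), and permutation tests scipy 1.17.1.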

Additional observations from a re-analysis of the deposited data

Results flagged for a closer look

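In 14 of 196 groups of 4 arrays checked, for the genes named, 1 array stood far from the other 3 by Dixon's test. Chance marks about 1 in 20 groups, and no cause was tested. Control XY 3 was that array in 11 of them. It was the highest for Defb19 (17.21), Igfbp3 (11.71), Aldh1a1 (14.89), Clu (10.28), Gli2 (8.38), Acta2 (12.004), Col4a1 (9.23), Hsd3b1 (10.81), Cyp11a1 (8.71) and Ap3d1 (8.83), and the lowest for C1qb (6.22). Among the others, Bmpr2 was lowest in control XY 2 (11.68), Frem1 was highest in dKO XY 2 (8.0), and Foxl2 was highest in dKO XY 3 (5.36).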

How the results depend on the processing

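Counts of called clusters depended on the setting. In higher and lower clusters, 835 and 975 were called after quantile normalization, 1106 and 1718 with a change of at least 2-fold, 2709 and 11165 after median centring, 13 and 47 after rescaling to equal signal contrast, 0 and 0 with contrast as a covariate, 6649 and 4200 with XY arrays only, 4452 and 2506 by an ordinary linear model, 18308 higher with array weights, 10 and 52 at an adjusted p under 0.01, and 151 and 1396 among the 5452 clusters above the background level of the negative controls. Leaving out 1 array gave 18 to 18928 higher and 60 to 9137 lower calls, with 18 and 60 without dKO XY 1, 26 and 84 without control XY 3, 62 and 135 without dKO XY 3, 1765 and 1474 without control XY 2, 1904 and 1616 without control XY 4, 4681 and 3305 without dKO XY 4, and 18928 and 9137 without dKO XY 2. The causes were not tested. With the replicate number as a block 9641 higher and 5819 lower clusters were called. The numbers do not pair the arrays, since same-numbered arrays correlated at 0.21, −0.03, −0.41 and −0.21 in their deviations from the group means. Amh differed by −5.42 with contrast as a covariate (adjusted p = 0.176), and by −6.29 to −5.35 without single arrays. Inhbb was not called after quantile normalization (−0.65), rescaling (−0.56), with the covariate (−0.30), with XY arrays only (−0.59, adjusted p = 0.0577), by the ordinary model (−0.59, adjusted p = 0.0583) or without dKO XY 1 and 3 (−0.50), and ranged from −0.72 to −0.41 without single arrays. Signal contrast differed by −1.20 to −0.75 without single arrays. Among called genes the sign turned for Cst9 (0.70), Tpm1 (0.051), Mki67 (0.48), Ndufa1 (0.52) and Lsm7 (1.89) after rescaling, and for Serpina5 (−0.030) and Lsm7 (0.14) in dKO XY 2 against control XY 1 and 4. Among lists with a median of at least 0.3 in size, it turned positive for cholesterol genes with the covariate (0.028) and in dKO XY 2 (0.058), the IGF system with the covariate (0.073), DNA replication in dKO XY 2 (0.068), the respiratory chain after rescaling (0.45) and with the covariate (0.015), imprinted genes after rescaling (0.067), and splicing factors after quantile normalization (0.027), rescaling (0.70), with the covariate (0.16) and in dKO XY 2 (0.14). Smaller medians turned too, as that of the gonad and Sertoli cell transcription factors after quantile normalization (0.11) and in dKO XY 2 (0.24). Of all values under alternatives, 31 of 2287 for named genes, Sox9 among them (0.77 in dKO XY 2), and 59 of 678 for lists differed in sign from the main value. For named genes 547 values were no longer called and 3 were newly called.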

Other observations

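Some gene groups not described above were counted as well. Of 27 WNT ligands, receptors and antagonists 5 were lower and 1 higher in dKO XY than in control XY testes (median −0.07). The shares of all symbols were 14.5% lower and 16.4% higher, and 3 of the WNT genes were lower after quantile normalization. Of 22 FGF, PDGF and VEGF ligands and receptors 7 were lower and 2 higher, with 4 lower after quantile normalization. Of 22 glutathione and prostaglandin enzymes 9 were lower and 1 higher (median −0.44), led by Mgst3, a microsomal glutathione transferase (−1.44 ± 0.29, adjusted p = 0.0206). Of 31 ribosomal protein genes 1 was lower and none higher (median −0.13).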
